A study of Homo sapiens with 18 samples.

Results

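The transcription factor NRF2, encoded by NFE2L2, and 9 genes that control it, compete with it or answer to it were followed in 2 human ovarian cancer cell lines exposed to daphnetin. The 10 genes are NFE2L2, NFE2L1, KEAP1, BACH1, MAFF, MAFG, MAFK, OSGIN1, TRIM16 and TRIM16L, out of 56303 in the count table. They were chosen by name and known function, with earlier results of these data in view, in which the responses of OSGIN1 and TRIM16 in A2780 had already been seen. The study asked which transcripts change when daphnetin, a plant dihydroxycoumarin, kills ovarian cancer cells, and its title points to NQO1, a quinone reductase, and to ferroptosis, in which iron-driven oxidation of membrane lipids is lethal. A2780 and SKOV3 are established lines, labelled wild type, and each was given DMSO (the solvent), 20 mg/L daphnetin or 40 mg/L daphnetin, with 3 libraries in each of the 6 groups. The labels give neither the hours of treatment nor whether the numbered replicates were separate cultures, so the p-values speak to the spread among these libraries only, and that spread may be technical. The growth protocol lists DMEM and RPMI-1640 with different serum shares for the 2 lines. It does not say outright which line had which, and line and medium cannot be told apart.

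NRF2 is made continuously and is normally destroyed: KEAP1, a cysteine-rich adaptor, presents it to the CUL3 ubiquitin ligase. When electrophiles or oxidants modify KEAP1, NRF2 escapes, pairs with a small MAF protein and binds antioxidant response elements (ARE) at genes for quinone reduction, glutathione synthesis and heme breakdown. BACH1 pairs with the same small MAF proteins and represses many of those genes until heme displaces it. Because NRF2 is controlled mainly at the protein level, the RNA of its own gene is not a measure of its activity, and no protein was measured here.

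The A2780 libraries held 30016475 to 37220879 counts each and the SKOV3 libraries 35105152 to 44132931. The mitochondrial share was 10.6% to 16.5% for A2780 against 4.36% to 5.23% for SKOV3, and the ranges of the 3 dose groups of a line overlapped. ERBB2, known to be amplified in SKOV3, measured 2260 to 2730 CPM (counts relative to library size) in SKOV3 and 62.5 to 92.0 CPM in A2780. The marker values in this paragraph use library size alone. All later levels in CPM also carry edgeR's TMM correction for library composition. The 6 epithelial markers summed to 876 to 1650 CPM in SKOV3 but to 10.6 to 23.3 CPM in A2780, where CDH1 did not exceed 0.0555 CPM, and PAX8, WT1 and MUC16 together reached at most 0.533 CPM. A2780, although labelled as an ovarian cancer line, thus held almost no RNA of the ovarian lineage markers and little of the epithelial ones. In SKOV3 the 3 lineage markers summed to 167 to 394 CPM, and PAX8 alone measured 163 to 391 CPM. WT1 stayed at or under 0.537 CPM and MUC16 at or under 3.96 CPM there. The 5 leukocyte genes summed to 3.9 to 5.94 CPM in A2780 and to 70.1 to 105 CPM in SKOV3. CD68 alone gave 68.9 to 104 CPM of the latter, while PTPRC and CD3E stayed at or under 0.218 CPM in every library. The 3 endothelial genes summed to at most 4.75 CPM. The 4 fibroblast genes summed to 132 to 166 CPM in A2780, mainly DCN (60.1 to 89.9 CPM) and LUM (41.6 to 57.1 CPM). In SKOV3 they summed to 297 to 391 CPM, mainly COL1A1 (294 to 383 CPM).

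The stretches of promoter printed here are those in which a search found an ARE core or the AP-1 site, which has similar letters. An AP-1 match alone is not a match to the ARE core. RefSeq promoter windows on GRCh38.p14, 250 bases before to 50 after a gene start, were found for 8 of the 10 genes, not for MAFK and TRIM16L. The ARE core was searched as TGACNNNGC and the AP-1 site as TGAGTCA, on both strands. The core stood in 13.3% of all 35116 promoter windows, the AP-1 site in 4.95% and the full form TGACTCAGC, which contains the core, in 0.561%. RefSeq gives some genes several starts, and a match was found at a single start of each of 4 genes. A core stood there for KEAP1 and MAFF, and an AP-1 site for OSGIN1 and BACH1. The shares above are per window, so these counts of genes cannot be set against them. The other windows of KEAP1, MAFF and BACH1 had no match. NFE2L2, NFE2L1, MAFG and TRIM16 had none of these letters in their windows. In each line below the 150 bases run 5′ to 3′ on the gene's own strand, and capitals mark the matched letters.
OSGIN1, chr16:83953090-83953239, plus strand: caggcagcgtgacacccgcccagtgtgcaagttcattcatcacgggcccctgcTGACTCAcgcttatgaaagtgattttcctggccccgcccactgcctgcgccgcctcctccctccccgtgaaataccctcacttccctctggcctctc
KEAP1, chr19:10502772-10502921, minus strand: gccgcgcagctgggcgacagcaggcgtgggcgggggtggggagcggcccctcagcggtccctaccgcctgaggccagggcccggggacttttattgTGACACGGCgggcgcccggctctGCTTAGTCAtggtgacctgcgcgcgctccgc
BACH1, chr21:29298772-29298921, plus strand: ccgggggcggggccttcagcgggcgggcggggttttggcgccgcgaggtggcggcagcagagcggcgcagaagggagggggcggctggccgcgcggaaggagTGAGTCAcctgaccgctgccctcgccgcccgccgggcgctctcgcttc
MAFF, chr22:38201844-38201993, plus strand: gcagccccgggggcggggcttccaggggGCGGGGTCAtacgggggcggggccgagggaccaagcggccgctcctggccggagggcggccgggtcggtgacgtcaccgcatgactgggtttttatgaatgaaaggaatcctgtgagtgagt

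Positions are counted from the start whose window is printed. KEAP1 carried both of its cores within 60 bases of it, at positions -54 and -31. The MAFF core began at position -122, the OSGIN1 site at -97 and the BACH1 site at -48. These are matches of letters only, and binding was not measured.

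In DMSO the set was already arranged differently in the 2 lines. SKOV3 held more RNA of NFE2L2, NFE2L1, MAFF, MAFG and OSGIN1, and less of KEAP1, MAFK and TRIM16L, than A2780. A gene is said to be called, or to have risen or fallen, where its adjusted p was under 0.05. The largest of these differences was that of MAFF, a small MAF that is induced by inflammatory and stress signals. It measured 30.9 ± 1.93 CPM (SD, n = 3) in SKOV3 and 4.08 ± 0.296 CPM in A2780 on a scale set over all 18 libraries, a 7.55-fold difference (log2 2.92, SE 0.10, adjusted p = 3.39e-27 by edgeR's quasi-likelihood test). NFE2L2 was 1.98-fold higher in SKOV3, at 77.7 ± 1.51 against 39.2 ± 1.90 CPM (adjusted p = 8.3e-18, edgeR). NFE2L1, whose product sits in the endoplasmic reticulum membrane and drives proteasome genes, was 2.17-fold higher (608 ± 26.4 against 281 ± 11.9 CPM, adjusted p = 3.63e-21, edgeR). MAFG was 2.01-fold and OSGIN1 2.16-fold higher in SKOV3. OSGIN1 was scarce in both lines, at 1.24 ± 0.196 CPM in SKOV3 and 0.576 ± 0.231 CPM in A2780.

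KEAP1 went the other way, at 24.8 ± 1.79 CPM in SKOV3 and 33.0 ± 1.15 CPM in A2780 (log2 -0.41, SE 0.07, adjusted p = 2.21e-06, edgeR). MAFK was 2.49-fold and TRIM16L 2.01-fold lower in SKOV3. BACH1 and TRIM16 were not called: the log2 difference was 0.10 for each, with 95% intervals of -0.06 to 0.26 for BACH1 and -0.06 to 0.27 for TRIM16. In all, 5 of the 10 genes were called higher and 3 lower in SKOV3. Over the 23742 genes tested in both lines 41.2% were called higher and 37.2% lower, so a call between the lines was common for any gene. The median log2 difference was 0.55 over the 10 genes and 0.05 over all genes tested.

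Per kilobase of exon, NFE2L1 was the most abundant of the 10 transcripts in all 6 groups, from 48.2 ± 2.04 CPM per kb in A2780 with DMSO to 126 ± 2.64 CPM per kb in SKOV3 at 40 mg/L. The order behind it differed by line. In A2780 with DMSO it ran KEAP1 (8.77 ± 0.305 CPM per kb), NFE2L2 (6.56 ± 0.318), MAFK (5.33 ± 0.713), MAFG (4.67 ± 0.391), TRIM16 (2.92 ± 0.104), BACH1 (2.23 ± 0.162), TRIM16L (1.93 ± 0.0997), MAFF (0.727 ± 0.0526) and OSGIN1 (0.166 ± 0.0667). The neighbours MAFK and MAFG lay within 1 SD of each other in that order. In SKOV3 with DMSO the order was NFE2L2 (13.0 ± 0.252 CPM per kb), MAFG (9.37 ± 0.304), KEAP1 (6.59 ± 0.475), MAFF (5.49 ± 0.343), TRIM16 (3.14 ± 0.260), BACH1 (2.39 ± 0.0267), MAFK (2.14 ± 0.152), TRIM16L (0.961 ± 0.106) and OSGIN1 (0.36 ± 0.0566). No neighbours in the SKOV3 order lay within 1 SD of each other. At 40 mg/L OSGIN1 had moved from the last to the 7th place in both lines, at 2.52 ± 0.198 CPM per kb in A2780 and 6.10 ± 0.532 in SKOV3. The ratio of KEAP1 to NFE2L2 RNA per kb in DMSO was 1.34 ± 0.114 in A2780 and 0.507 ± 0.0424 in SKOV3.

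**Figure D1:**
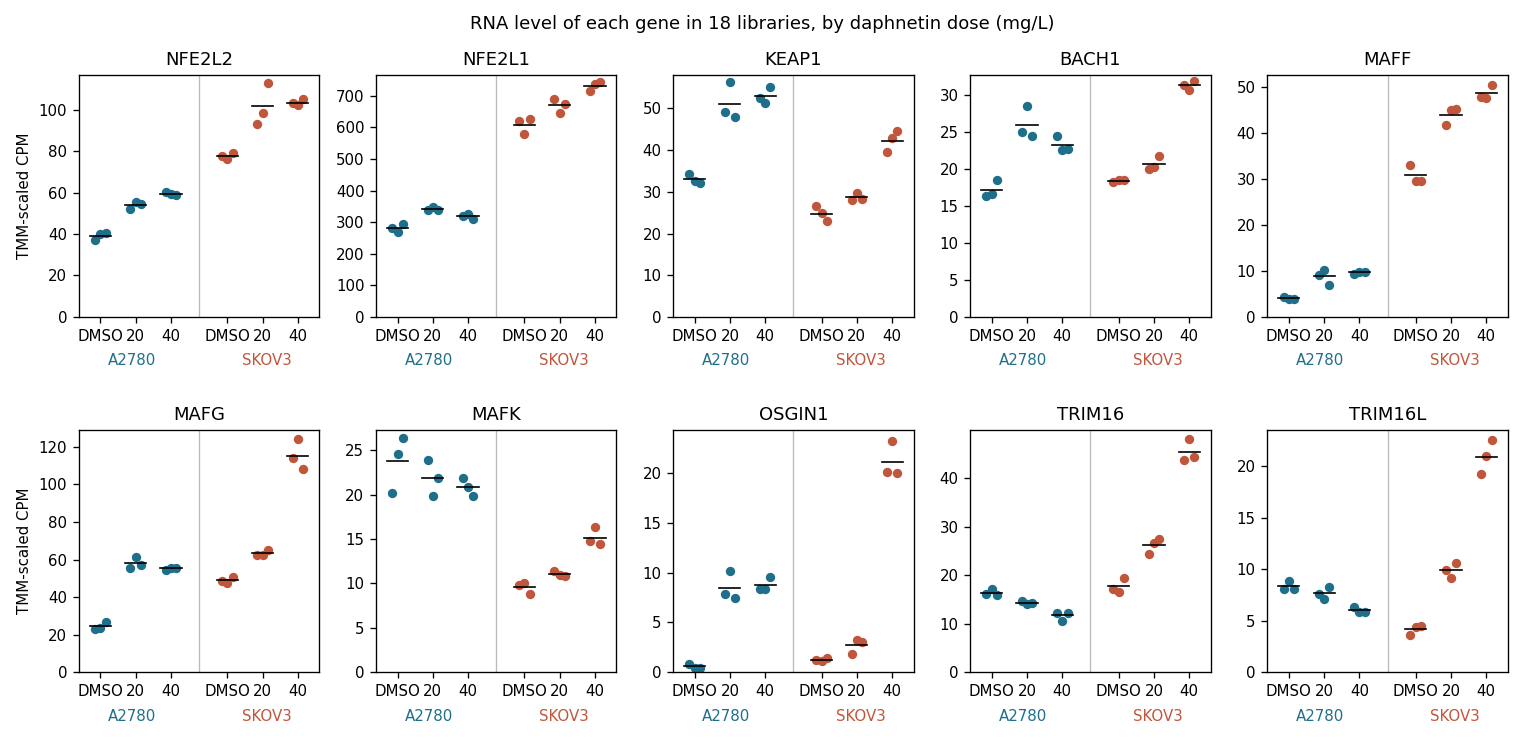
RNA level of each of the 10 genes in every library (TMM-scaled CPM over all 18 libraries, linear axis from 0), by line and daphnetin dose in mg/L, with points for libraries and a bar for the mean of 3. OSGIN1 jumps at 20 mg/L in A2780 and at 40 mg/L in SKOV3, and TRIM16 and TRIM16L go up in SKOV3 while they go down in A2780.

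Against DMSO, daphnetin was accompanied by more RNA of most of the 10 genes in both lines, by 1.12-fold to 16.9-fold where called. With 20 mg/L in A2780 the calls were 7 higher and none lower (1 lower at an unadjusted p under 0.05 by edgeR, 0 by DESeq2), where 18% of the 20593 genes tested were called higher and 18.9% lower. With 40 mg/L in that line 7 were called higher and 2 lower, against 17.7% and 19.2% of all genes. In SKOV3 at 20 mg/L 7 were called higher and none lower (0 lower at an unadjusted p under 0.05 or by DESeq2), against 5.16% and 4.95% of 21936 genes. At 40 mg/L in SKOV3 all 10 were called higher, against 26.4% of genes called higher and 25.6% lower. Because the genes were chosen with these comparisons known, the counts are a description, nothing is read from them, and fold changes against DMSO are given with their standard errors (SE) but without p-values. The 2 doses of a line share their DMSO libraries. The median log2 fold change of the 10 genes was 0.52 and 0.50 in A2780 at 20 and 40 mg/L and 0.38 and 0.78 in SKOV3, while that of all genes tested lay between -0.01 and 0.01. In such bulk libraries more RNA per cell cannot be told apart from a larger share of cells that express a gene.

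**Figure D2:**
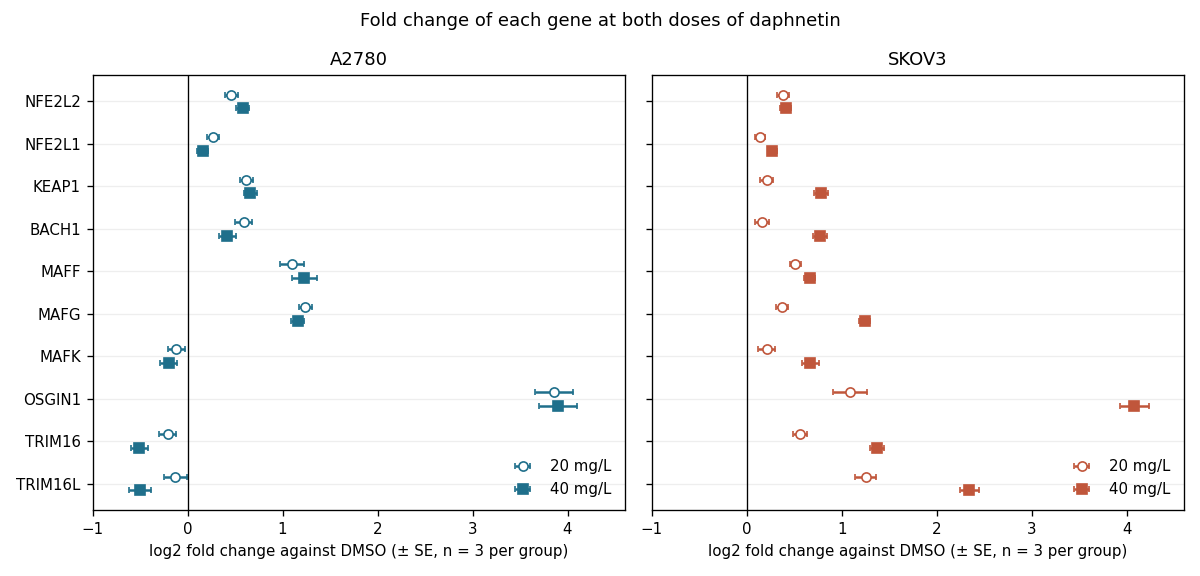
Log2 fold change against DMSO of each gene at 20 mg/L (open circles) and 40 mg/L (filled squares) in A2780 and SKOV3, with bars of 1 SE and 3 libraries per group. In A2780 both doses nearly coincide for most genes, as for OSGIN1 at 3.86 and 3.90, whereas in SKOV3 the 40 mg/L points lie farther to the right, as for OSGIN1 at 1.09 and 4.08.

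NFE2L2 rose in both lines, by factors between 1.30 and 1.5 at the 2 doses. In A2780 it stood at 37.8, 40.6 and 41.3 CPM in the DMSO libraries, at 52.6, 56.1 and 55.4 CPM at 20 mg/L and at 60.8, 59.7 and 58.6 CPM at 40 mg/L. The 3 groups did not overlap. The fold changes were 1.37 at 20 mg/L (log2 0.46, SE 0.07) and 1.5 at 40 mg/L (log2 0.58, SE 0.07). In SKOV3 the DMSO libraries measured 76.9, 75.3 and 78.5 CPM, those at 20 mg/L 92.1, 97.2 and 111 CPM and those at 40 mg/L 102, 101 and 104 CPM. Every treated SKOV3 library exceeded every DMSO library, and the 2 dose groups overlapped. The fold changes were 1.30 and 1.33 (log2 0.38 and 0.41, SE 0.06 each). NFE2L2 (chr2:177227595-177392697, minus strand, GRCh38) shares 17.6% of its exonic bases with AC074286.1 on the same strand, a gene that was not called in any comparison within a line (log2 -0.42 to 0.04).

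NFE2L1 (chr17:48048329-48061487, plus strand) moved least of the genes called. Its levels were 286, 273 and 297 CPM with DMSO in A2780, 340, 351 and 344 CPM at 20 mg/L and 321, 329 and 311 CPM at 40 mg/L. Both treated groups lay above DMSO without overlap, by log2 0.27 (SE 0.06) at 20 mg/L and 0.16 (SE 0.06) at 40 mg/L. The call at 40 mg/L was lost without replicate 1 or 2 of the DMSO group (log2 0.18 and 0.15) and without replicate 1 or 2 of the 40 mg/L group (log2 0.16 and 0.14). In SKOV3 the libraries measured 614, 571 and 619 CPM with DMSO, 681, 637 and 665 CPM at 20 mg/L and 707, 733 and 737 CPM at 40 mg/L. The step at 20 mg/L was not called (log2 0.14, 95% interval 0.03 to 0.24), although it was without replicate 3 of the 40 mg/L group (log2 0.14), with library size alone (log2 0.17) and in a fit of only the 2 groups compared (log2 0.14). The step at 40 mg/L was called (log2 0.27, SE 0.05).

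KEAP1, the gene for NRF2's own inhibitor, rose at both doses in A2780 and mainly at 40 mg/L in SKOV3. In A2780 it went from 34.9, 33.1 and 32.7 CPM with DMSO to 49.4, 56.9 and 48.8 CPM at 20 mg/L and 53.0, 51.5 and 55.0 CPM at 40 mg/L. These were 1.54-fold and 1.58-fold increases (log2 0.62 and 0.66, SE 0.07 each), and the treated groups overlapped each other but not DMSO. In SKOV3 it measured 26.2, 24.6 and 22.7 CPM with DMSO, 27.7, 29.3 and 28.0 CPM at 20 mg/L and 39.3, 42.6 and 44.1 CPM at 40 mg/L. The 3 groups were apart, with a 1.16-fold change at 20 mg/L (log2 0.21, SE 0.07) and a 1.71-fold change at 40 mg/L (log2 0.78, SE 0.07). The call at 20 mg/L was kept without DMSO replicate 1 but lost without DMSO replicate 2 or 3 or any of the 20 mg/L replicates, where log2 ran from 0.15 to 0.23, and was also lost with no filter (log2 0.20) and in 1 fit of all 18 libraries (log2 0.21). KEAP1 (chr19:10486120-10503741, minus strand) has both of its own ARE cores in the promoter stretch above, and its exons overlap no other gene of the table. Any part of these cores in its change was not tested.

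BACH1 (chr21:29194071-29630751, plus strand), the heme-sensitive repressor, followed a similar course. In A2780 it stood at 16.7, 16.9 and 18.9 CPM with DMSO, 25.2, 28.8 and 25.0 CPM at 20 mg/L and 24.7, 22.7 and 22.7 CPM at 40 mg/L. All treated libraries were above DMSO, and those at 20 mg/L were slightly above those at 40 mg/L, with fold changes of 1.51 (log2 0.59, SE 0.09) and 1.33 (log2 0.42, SE 0.09). In SKOV3 it measured 18, 18.2 and 18.4 CPM with DMSO, 19.8, 20.0 and 21.5 CPM at 20 mg/L and 31.2, 30.6 and 31.7 CPM at 40 mg/L. The groups did not overlap. The change at 20 mg/L was not called (log2 0.16, 95% interval 0.03 to 0.30) and that at 40 mg/L was 1.71-fold (log2 0.77, SE 0.07). Per kb, BACH1 RNA amounted to 0.340 ± 0.0168 of NFE2L2 RNA in A2780 with DMSO, 0.373 ± 0.0244 at 20 mg/L and 0.303 ± 0.0105 at 40 mg/L. In SKOV3 the same ratio was 0.184 ± 0.00339 with DMSO, 0.159 ± 0.0083 at 20 mg/L and 0.236 ± 0.00108 at 40 mg/L.

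The 3 small MAF genes encode the partners that NRF2, NFE2L1 and BACH1 all need to bind DNA, and they did not move alike. MAFG (chr17:81918270-81927714, minus strand) more than doubled in A2780, from 23.5, 23.7 and 27.2 CPM with DMSO to 55.8, 61.8 and 58.0 CPM at 20 mg/L and 55.0, 56.0 and 55.4 CPM at 40 mg/L. The 2 doses gave almost the same level, with fold changes of 2.36 (log2 1.24, SE 0.07) and 2.24 (log2 1.16, SE 0.07). In SKOV3 MAFG measured 47.7, 47.2 and 50.2 CPM with DMSO, 61.5, 61.7 and 64.4 CPM at 20 mg/L and 112, 123 and 107 CPM at 40 mg/L. It climbed in 2 separate steps there, 1.29-fold at 20 mg/L (log2 0.37, SE 0.06) and 2.36-fold at 40 mg/L (log2 1.24, SE 0.06).

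MAFF (chr22:38200767-38216511, plus strand) rose in both lines from very different starting points. In A2780 the libraries measured 4.50, 3.92 and 4.05 CPM with DMSO, 9.28, 10.3 and 7.14 CPM at 20 mg/L and 9.42, 9.90 and 9.86 CPM at 40 mg/L. Treated libraries were all above DMSO, by 2.14-fold (log2 1.10, SE 0.13) and 2.34-fold (log2 1.23, SE 0.13), although replicate 3 at 20 mg/L lay below the other two. In SKOV3 the levels were 32.7, 29.4 and 29.4 CPM with DMSO, 41.2, 44.5 and 44.6 CPM at 20 mg/L and 47.6, 47.4 and 50 CPM at 40 mg/L. Those were smaller relative steps, 1.42-fold (log2 0.51, SE 0.06) and 1.58-fold (log2 0.66, SE 0.06), without overlap between groups.

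MAFK (chr7:1530714-1543043, plus strand) did not rise in A2780. It measured 20.6, 25.0 and 26.8 CPM with DMSO, 24.0, 20.1 and 22.3 CPM at 20 mg/L and 22.1, 21.0 and 19.9 CPM at 40 mg/L. The groups overlapped, and neither change was called (log2 -0.12, 95% interval -0.31 to 0.07, and -0.20, interval -0.39 to -0.01). Without DMSO replicate 1, the lowest of its group, the fall at 40 mg/L was called (log2 -0.29). In SKOV3 MAFK went from 9.75, 9.90 and 8.68 CPM with DMSO to 11.3, 10.8 and 10.7 CPM at 20 mg/L and 14.7, 16.2 and 14.3 CPM at 40 mg/L. The groups were apart, but only the 40 mg/L change was called (1.6-fold, log2 0.67, SE 0.09), that at 20 mg/L being log2 0.21 with an interval of 0.03 to 0.39. MAFK shares 18.1% of its exonic bases with TMEM184A on the opposite strand, and TMEM184A moved the same way, with log2 -0.39 and -0.59 in A2780 (both called lower) and 0.20 (not called) and 0.51 (called higher) in SKOV3. The strand setting of the counting is not given in the sources used here, and the part of TMEM184A reads in the MAFK counts was not tested.

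Taken per kb of exon, the small MAF pool grew and its makeup shifted. The summed level of the 3 genes was 10.7 ± 1.01 CPM per kb in A2780 with DMSO, 17.6 ± 0.474 at 20 mg/L and 17.0 ± 0.142 at 40 mg/L. In SKOV3 it was 17.0 ± 0.328, 22.5 ± 0.539 and 34.1 ± 1.54 CPM per kb. Treated A2780 therefore reached the level that SKOV3 had in DMSO. In A2780 MAFK was the largest part in DMSO, at 49.5% ± 2.66 of the sum, and MAFG held 43.6% ± 1.74, whereas at 20 mg/L MAFG held 63.1% ± 2.51 and MAFK 28.0% ± 2.87. At 40 mg/L these shares were 62.3% ± 0.825 and 27.6% ± 1.17. MAFF made up 6.85% ± 1.08 of the pool in A2780 with DMSO and 10.1% ± 0.344 at 40 mg/L. In SKOV3 MAFG led in every group, with 55.1% ± 1.98, 54.1% ± 0.624 and 64.5% ± 1.65, and MAFF held 32.3% ± 1.47, 34.9% ± 0.943 and 25.5% ± 1.81. RNA shares say nothing of the amounts of protein.

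**Figure D3:**
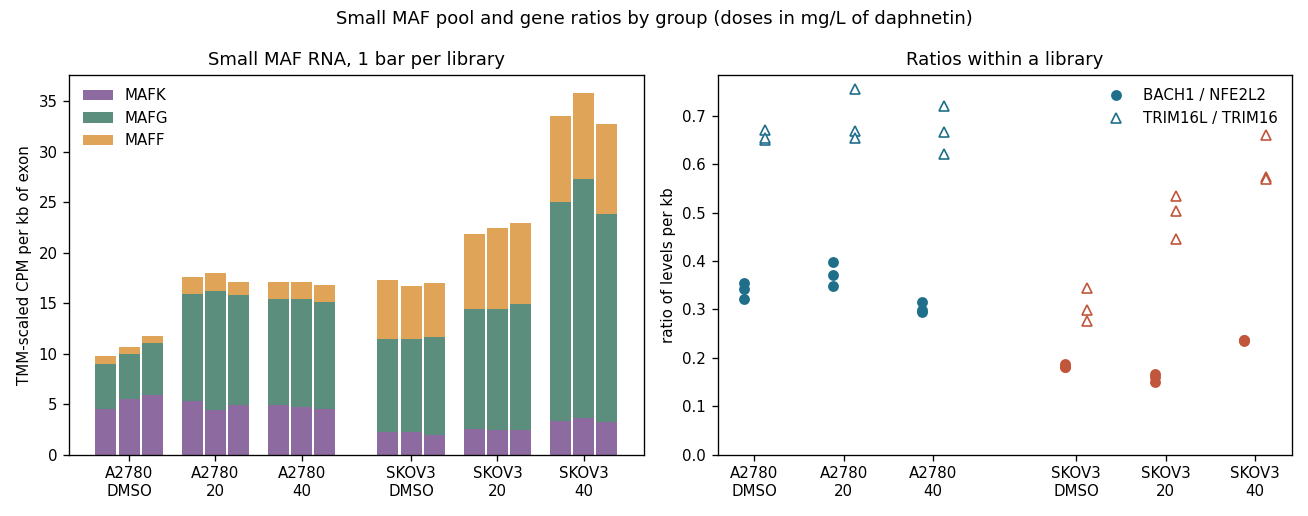
Left, MAFK, MAFG and MAFF levels per kb of exon stacked in 1 bar per library. Right, the ratios per kb of BACH1 to NFE2L2 (filled circles) and of TRIM16L to TRIM16 (open triangles) in each library of A2780 (blue) and SKOV3 (red), with doses in mg/L. The MAFG segment widens from DMSO to 20 mg/L in A2780, and the TRIM16L to TRIM16 ratio climbs from 0.307 to 0.601 in SKOV3 while it stays between 0.660 and 0.694 in A2780 on average.

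OSGIN1 (chr16:83948282-83966332, plus strand), an oxidative stress induced growth inhibitor and a known NRF2 target, had the largest fold change of the 10 genes in A2780 at both doses and in SKOV3 at 40 mg/L, while TRIM16L exceeded it in SKOV3 at 20 mg/L. In A2780 it stood at 0.857, 0.432 and 0.468 CPM with DMSO, at 7.89, 10.3 and 7.56 CPM at 20 mg/L and at 8.43, 8.36 and 9.52 CPM at 40 mg/L. The treated groups overlapped each other and were far above DMSO, by 14.5-fold (log2 3.86, SE 0.20) and 14.9-fold (log2 3.90, SE 0.20). Only 14 to 28 reads lay behind each DMSO value in A2780, and leaving out 1 library moved these log2 values between 3.68 and 4.25 and between 3.72 and 4.29. In SKOV3 the libraries measured 1.19, 1.06 and 1.44 CPM with DMSO, 1.83, 3.15 and 2.98 CPM at 20 mg/L and 20.0, 23.1 and 19.8 CPM at 40 mg/L. Here 20 mg/L gave a 2.13-fold change (log2 1.09, SE 0.18) and 40 mg/L a 16.9-fold change (log2 4.08, SE 0.15). OSGIN1 shares 13.9% of its exonic bases with RP11-505K9.4 on the same strand, a gene that was not called in any comparison within a line (log2 -0.31 to 0.20).

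TRIM16, a tripartite motif protein with ubiquitin ligase activity that is linked to NRF2 stability and to protein aggregate clearance, and its relative TRIM16L went in opposite directions in the 2 lines. TRIM16 in A2780 measured 16.5, 17.4 and 16.3 CPM with DMSO, 14.8, 14.2 and 14.6 CPM at 20 mg/L and 12.4, 10.7 and 12.2 CPM at 40 mg/L. The groups descended without overlap, the change at 20 mg/L not being called (log2 -0.21, 95% interval -0.39 to -0.02) and that at 40 mg/L being 1.43-fold lower (log2 -0.51, SE 0.09). In SKOV3 it measured 16.9, 16.4 and 19.2 CPM with DMSO, 24.0, 26.4 and 27.1 CPM at 20 mg/L and 43.4, 47.8 and 44.2 CPM at 40 mg/L. Both steps were called, 1.47-fold (log2 0.56, SE 0.07) and 2.58-fold (log2 1.37, SE 0.07).

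TRIM16L in A2780 went from 8.27, 8.99 and 8.20 CPM with DMSO to 7.62, 7.14 and 8.46 CPM at 20 mg/L and 6.36, 5.90 and 5.80 CPM at 40 mg/L. At 20 mg/L it overlapped DMSO (log2 -0.13, 95% interval -0.37 to 0.10) and at 40 mg/L it was 1.41-fold lower (log2 -0.50, SE 0.12). In SKOV3 it rose from 3.59, 4.35 and 4.40 CPM to 9.85, 9.02 and 10.5 CPM at 20 mg/L and 19.1, 20.9 and 22.4 CPM at 40 mg/L. This 2.38-fold and 5.06-fold rise (log2 1.25, SE 0.11, and 2.34, SE 0.10) was second in size only to that of OSGIN1 among the 10 genes in SKOV3 at 40 mg/L. The ratio of TRIM16L to TRIM16 per kb was 0.307 ± 0.0348 in SKOV3 with DMSO, 0.494 ± 0.0455 at 20 mg/L and 0.601 ± 0.0523 at 40 mg/L.

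TRIM16 (chr17:15627960-15684311, minus strand) and TRIM16L (chr17:18697998-18736118, plus strand) are related copies on the same chromosome, and reads can be hard to assign between them. In the GENCODE 29 transcripts, 19.3% of the 75-base windows of TRIM16 occur unchanged in TRIM16L, and 26.7% of those of TRIM16L in TRIM16. TRIM16 also shares 23.5% of its exonic bases with RP11-385D13.1 on the same strand, whose log2 fold change was -0.14 (not called) and -0.47 (called lower) in A2780 and 0.58 and 1.48 (both called higher) in SKOV3. How the authors' counting treated reads that fit several genes is not given in the sources used here, so the values of TRIM16 and TRIM16L are uncertain as separate quantities, and the exchange of reads between them was not tested.

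Between 20 and 40 mg/L most of the genes rose further in SKOV3. There 9 of the 10 were called higher at 40 than at 20 mg/L and none lower (0 lower at an unadjusted p under 0.05 or by DESeq2), where 23.2% of all genes were called higher and 24.2% lower. The median was log2 0.59 over the 10 genes and -0.00 over all genes. The SKOV3 comparisons with DMSO, from which this contrast follows, were known when the genes were chosen. Its calls are therefore a description, and no p-values are given. OSGIN1 changed most, 7.93-fold (log2 2.99, SE 0.13), followed by TRIM16L (log2 1.09, SE 0.09), MAFG (log2 0.87, SE 0.06) and TRIM16 (log2 0.81, SE 0.07). BACH1, KEAP1 and MAFK rose by log2 0.61, 0.57 and 0.47. NFE2L2 itself was not called, at log2 0.03 with a 95% interval of -0.08 to 0.15. The small changes of MAFF (log2 0.15, SE 0.06) and NFE2L1 (log2 0.13, SE 0.05) were called, but the calls depended on single libraries and on the fit. Both calls were lost in 1 fit of all 18 libraries (log2 0.15 and 0.13). MAFF was no longer called without replicate 1 at 20 mg/L (log2 0.12) or replicate 3 at 40 mg/L (log2 0.13), and NFE2L1 without replicate 2 or 3 at 20 mg/L (log2 0.11 and 0.14) or replicate 2 at 40 mg/L (log2 0.13).

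In A2780 no gene of the 10 was called higher at 40 than at 20 mg/L (0 also at an unadjusted p under 0.05 by edgeR or by DESeq2) and 2 were called lower, against 6.71% and 7.85% of all genes. These were TRIM16 (log2 -0.31, SE 0.09) and TRIM16L (log2 -0.36, SE 0.12), given without p-values because A2780 responses were known when the genes were chosen. Both calls were lost without replicate 1 or 3 at 20 mg/L or replicate 2 or 3 at 40 mg/L, where log2 ran from -0.33 to -0.24 for TRIM16 and from -0.38 to -0.29 for TRIM16L. OSGIN1 had a log2 change of 0.03 with a 95% interval of -0.25 to 0.32, MAFG of -0.08 with an interval of -0.22 to 0.06 and KEAP1 of 0.04 with an interval of -0.10 to 0.19. NFE2L2 lay at 0.13, with an interval of -0.01 to 0.26. The median of the 10 genes was -0.08.

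The difference between the lines' responses was taken directly, as SKOV3 minus A2780 in 1 fit of all 18 libraries. It contains the A2780 responses known when the genes were chosen, so the calls are a description and no p-values are given. At 20 mg/L 5 genes had the lower log2 response in SKOV3 and 2 the higher, where 10.6% and 11% of 23742 genes were so called. OSGIN1 differed most, by log2 -2.77 (SE 0.31), followed by MAFG with -0.88 (SE 0.09), MAFF with -0.60 (SE 0.14), BACH1 with -0.43 (SE 0.11) and KEAP1 with -0.42 (SE 0.10). TRIM16L and TRIM16 differed the other way, by 1.38 (SE 0.16) and 0.76 (SE 0.11). NFE2L2, NFE2L1 and MAFK were not called, with log2 differences of -0.08 (95% interval -0.26 to 0.10), -0.14 (-0.30 to 0.02) and 0.33 (0.06 to 0.60). MAFK was called without replicate 1 of A2780 DMSO (log2 0.43) or replicate 1 of A2780 at 20 mg/L (log2 0.39).

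At 40 mg/L the difference was no longer called for OSGIN1 (log2 0.16, 95% interval -0.50 to 0.82), MAFG (0.05, interval -0.13 to 0.24) or KEAP1 (0.09, interval -0.11 to 0.29). It was 2.81 (SE 0.16) for TRIM16L, 1.85 (SE 0.11) for TRIM16 and 0.85 (SE 0.13) for MAFK, all called. MAFF kept the lower response in SKOV3 (-0.59, SE 0.14). BACH1 had -0.43 at 20 mg/L and 0.33 (SE 0.11) at 40 mg/L. The latter call was lost without A2780 DMSO replicate 3 (log2 0.27) or SKOV3 DMSO replicate 2 (log2 0.29), and with no filter (log2 0.3). NFE2L2 had a log2 difference of -0.19 (interval -0.37 to -0.01) and was not called, though it was without SKOV3 DMSO replicate 2 (log2 -0.25) or SKOV3 20 mg/L replicate 1 or 3 (log2 -0.22 each), and by DESeq2 or with RLE scaling (log2 -0.24 each). Altogether 4 genes had the higher and 1 the lower response in SKOV3, against 14.3% and 15.7% of all genes.

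**Figure D4:**
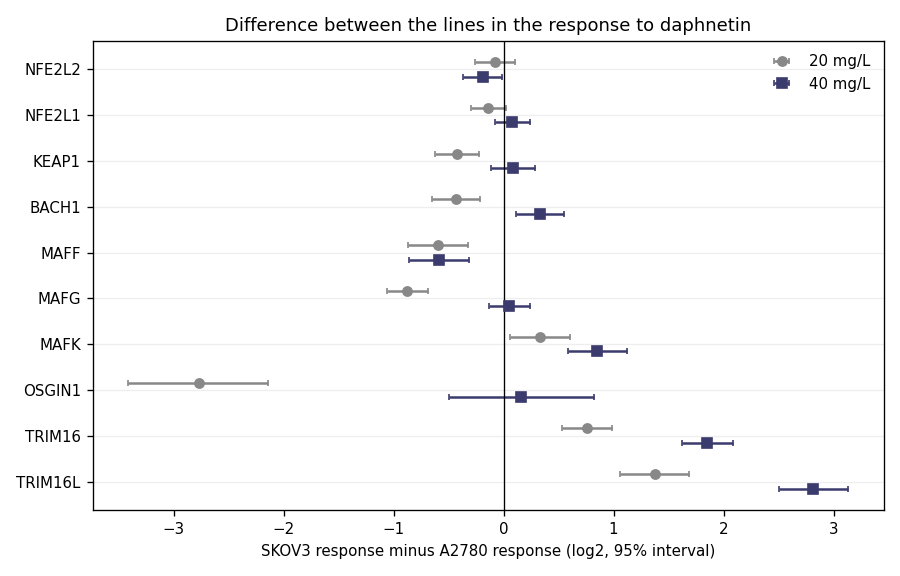
Difference in log2 response between the lines, SKOV3 minus A2780, for each gene at 20 mg/L (grey circles) and 40 mg/L (dark squares), with 95% intervals from the fit of 18 libraries. OSGIN1 lies at -2.77 at 20 mg/L and near 0 at 40 mg/L, whereas TRIM16 and TRIM16L lie to the right of 0 at both doses.

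Other genes of the pathway were taken from 8 lists of 77 genes, and their fold changes are relative to DMSO. The lists were written from general knowledge with earlier results of these data known, so their counts are a description. Counts are for 40 mg/L, where 17.7% of all genes were called higher and 19.2% lower in A2780, and 26.4% and 25.6% in SKOV3. A list whose shares lie near these is no result about the list, and nothing is read from shares farther away. Among 10 genes of the KEAP1 ligase and KEAP1 partners, 2 rose and 2 fell in A2780 at 40 mg/L, and 3 rose and 4 fell in SKOV3 (median log2 0.09 and -0.04, against -0.01 and 0.01 over all genes). SQSTM1, the autophagy receptor p62 that binds KEAP1, was higher by log2 1.05 (SE 0.07) in A2780 and 1.71 (SE 0.05) in SKOV3. PTMA, the small nuclear protein prothymosin alpha, fell by 0.75 (SE 0.08) and 0.37 (SE 0.06). Of 8 genes that turn NRF2 over without KEAP1, none rose by edgeR (1 at an unadjusted p under 0.05, 0 by DESeq2) and 2 fell in A2780, and 1 rose and 2 fell in SKOV3 (median log2 0.02 and 0.05). DCAF11, a substrate receptor of a CUL4 ligase, fell in SKOV3 (log2 -0.76, SE 0.06) but had 0.02 (SE 0.07) in A2780, and BTRC, the β-TrCP adaptor, fell in A2780 (log2 -0.38, SE 0.07) but had 0.15 (SE 0.07, not called) in SKOV3.

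Of 7 relatives, the other CNC, BACH and large MAF factors, 2 of 5 tested fell in A2780 at 40 mg/L and 2 of 6 in SKOV3 (median log2 -0.44 and -0.32). None was called higher by edgeR or by DESeq2, with 0 and 1 higher at an unadjusted p under 0.05. NFE2L3 fell by log2 0.49 (SE 0.11) in A2780 and 0.50 (SE 0.09) in SKOV3. Of 8 genes that process the NFE2L1 protein, 5 rose and 2 fell in A2780, and 6 rose and 1 fell in SKOV3 (median log2 0.24 and 0.35), beside 17.7% and 19.2% of all genes in A2780 and 26.4% and 25.6% in SKOV3. UFD1L, a cofactor of the VCP extraction machinery, was higher by log2 0.82 in both lines (SE 0.07 and 0.05). DDI2, the protease that cuts NFE2L1 free, fell in A2780 (log2 -0.37, SE 0.06) and rose in SKOV3 (log2 0.50, SE 0.06). Among 10 coactivators and modifiers 2 rose and 2 fell in A2780, and 1 rose and 4 fell in SKOV3 (median log2 -0.01 and -0.0). SMARCA4, the BRG1 chromatin remodeller, fell with log2 -0.50 and -0.42, and the Mediator subunit MED16 with -0.51 and -0.53. SIRT1 rose in both lines, with log2 0.22 (SE 0.07) in A2780 and 0.46 (SE 0.06) in SKOV3.

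The NRF2 targets stand beside 17.7% of all genes called higher in A2780 at 40 mg/L and 26.4% in SKOV3. Their counts too are a description. Of 13 targets in quinone, heme and iron metabolism, 8 were expressed well enough to test in A2780, and 7 of these rose and none fell (0 also at an unadjusted p under 0.05 or by DESeq2). In SKOV3 all 13 were tested, and 11 rose and 2 fell. The median log2 was 1.07 and 1.23. HMOX1, the heme oxygenase that BACH1 represses, resembled OSGIN1 across doses, with log2 3.91 and 3.66 (SE 0.15 each) in A2780 and 1.13 (SE 0.13) and 3.42 (SE 0.12) in SKOV3 at 20 and 40 mg/L. HMOX1 was scarce with DMSO, at 1.68 ± 0.36 CPM in A2780 and 3.07 ± 0.798 CPM in SKOV3. AKR1B10, an aldo-keto reductase, was higher by log2 3.94 (SE 0.19) in SKOV3 at 40 mg/L and was not tested in A2780. Its SKOV3 level went from only 0.506 ± 0.156 CPM with DMSO to 7.73 ± 1.02 CPM. Of the glutathione and thioredoxin targets 9 of 15 rose and 3 fell in A2780, and 12 of 16 rose and 1 fell in SKOV3 (median log2 0.52 and 0.66). Among them were SRXN1, which repairs peroxiredoxins, at log2 1.51 (SE 0.08) and 2.87 (SE 0.06) and TXNRD1, thioredoxin reductase, at 1.64 (SE 0.07) and 2.55 (SE 0.06). Of 5 NADPH-supplying enzymes 2 rose and none fell in A2780 (0 also at an unadjusted p under 0.05 or by DESeq2), and 4 rose and 1 fell in SKOV3, with medians of 0.19 and 0.52.

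The genes whose pattern was most like that of each of the 10 were found among 11587 genes by Pearson's r over the 18 libraries, each line centred on its own mean. The libraries share dose groups, so the values describe likeness of pattern only. NFE2L2 was nearest to NQO1 (r = 0.963), TALDO1 (r = 0.963) and SLC7A11 (r = 0.953), which encode a quinone reductase, a pentose phosphate enzyme and a cystine importer. OSGIN1 was nearest to HLA-E (r = 0.989), GCLM and ATP10D (r = 0.988 each). KEAP1 was nearest to ATP10D (r = 0.981), ERO1B (r = 0.979) and OSGIN1 (r = 0.978). MAFG was nearest to ERO1B (r = 0.990), GABPB2 (r = 0.988) and GCLM (r = 0.986), the modifier subunit of glutamate cysteine ligase. BACH1 had UFM1 (r = 0.974) and MAFF had TMEM192 (r = 0.962) as the nearest gene. TRIM16 was nearest to TRIM16L (r = 0.965), whereas TRIM16L was nearest to FADS3 (r = 0.97), ahead of TRIM16. TRIM16 and TRIM16L share sequence as given above. MAFK and NFE2L1 had the least close neighbours, CLASRP for MAFK (r = 0.922) and FAM212B for NFE2L1 (r = 0.952).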

How the data were processed

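The authors deposited 1 table of raw, whole-number counts for all libraries with exonic lengths and GRCh38 coordinates, per the file headers. Per the labels' protocols the mRNA kit was stranded. The submitters' processing notes name Trimmomatic 0.36 and build GRCh38. Not given in the sources used here were the aligner, counting program, annotation release and strand setting. Of all counts of 1 to 12, 74.3% to 77.0% per library were even, so mates appear to have been counted separately and totals overstate fragments. The 28 rows with date-like identifiers held 0.161% to 0.194% of the counts and stayed in the totals. Every pair of replicates differed beyond counting error (chi-square per degree of freedom 5.03 to 34.7). Whether molecular identifiers were used is not stated, so reads may be copies of the same molecule.

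The lines were fitted separately (20593 and 21936 genes after filterByExpr, 6 residual degrees of freedom) with TMM scaling and edgeR 4.0.16 quasi-likelihood F tests, robust, in R 4.3.3. The line difference and the DMSO baseline came from 1 fit of 18 libraries (23742 genes, 12 degrees of freedom). All p-values are two-sided and Benjamini-Hochberg adjusted over all genes tested, and calls use 0.05. SE was taken from the F statistic and 95% intervals from the t distribution. Levels are TMM-scaled CPM within a line for dose comparisons, and over 18 libraries, also per kb of exon, between genes or lines. The procedure was tested on simulated data with the same spread for all genes and changes in a small set of well-counted genes. The simulation therefore does not cover genes with few reads or changes in a large share of genes.

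The 10 genes and the gene lists were chosen with earlier results of these data known. All 10 passed the filter on low counts in both lines. Named genes are the 10, up to 3 called genes per list with the largest change at 40 mg/L in either line, and the 3 most alike genes of at least 5 mean CPM (log CPM, prior count 2). Promoters are RefSeq windows on GRCh38.p14, and shared 75-base windows come from GENCODE 29. Alternatives included RLE scaling, library size alone, other filters, DESeq2 1.42.0, a replicate block, other sets of libraries and leaving out each library.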

Additional observations from a re-analysis of the deposited data

Results flagged for a closer look

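The response to daphnetin differed between the lines for 7 of the 10 genes at 20 mg/L and for 5 at 40 mg/L, by the call of edgeR's interaction test over all genes. Of all genes 11% were called higher and 10.6% lower at 20 mg/L, and 14.3% and 15.7% at 40 mg/L. The A2780 responses were known when the genes were chosen, so the calls are a description. Values are log2 responses of SKOV3 minus A2780. At 20 mg/L the response in SKOV3 was the lower for OSGIN1 (-2.77), MAFG (-0.88), MAFF (-0.60), BACH1 (-0.43) and KEAP1 (-0.42), and the higher for TRIM16L (1.38) and TRIM16 (0.76). At 40 mg/L it was the higher for TRIM16L (2.81), TRIM16 (1.85), MAFK (0.85) and BACH1 (0.33), and the lower for MAFF (-0.59). The labels' protocol lists 2 growth media for the 2 lines without saying outright which line had which. Medium cannot be told apart from line. The overlapping genes TMEM184A for MAFK and RP11-385D13.1 for TRIM16 moved in the same directions as their partners, and their part in the counts was not tested.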

How the results depend on the processing

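Of 1830 alternative values of the 10 genes' fold changes, 1776 kept their direction and their side of the threshold, 33 lost the call, 12 gained it and 9 changed sign. The sign changes came from leaving out 1 library and concerned uncalled values: MAFF (-0.00 to 0.24) and OSGIN1 (-0.05 to 0.18) for 40 against 20 mg/L in A2780, NFE2L2 (-0.03 to 0.11) for the same in SKOV3, and MAFG (-0.03 to 0.09) and OSGIN1 (-0.22 to 0.35) for the line difference at 40 mg/L. The 2 genes called in A2780 for 40 against 20 mg/L became 1 with library size alone, with no filter and with the replicate block, and between 0 and 2 when a library was left out. The 7 genes called in SKOV3 at 20 mg/L ranged from 6 to 8. Deviations of same-numbered libraries from their group means were hardly correlated (-0.059 to 0.051). With the replicate block 1285 genes were called higher and 1252 lower in SKOV3 at 20 mg/L, in place of 1132 and 1085. In A2780 at 20 mg/L the numbers were 3531 and 3724, in place of 3716 and 3886. For the 10 genes the replicate block gave 7, 8 and 1 calls in A2780 at 20, 40 and 40 against 20 mg/L. It gave 8, 10 and 9 in SKOV3, 7 and 5 for the line differences and 8 in DMSO. It lost the calls of NFE2L1 in A2780 at 40 mg/L (log2 0.16) and TRIM16L in A2780 for 40 against 20 mg/L (log2 -0.36) and gained that of NFE2L1 in SKOV3 at 20 mg/L (log2 0.14). With library size alone the median of all genes in A2780 at 40 mg/L shifted by 0.104, and the share of calls that were higher went from 47.9% to 65.0%, from 48.9% to 65.0% in A2780 at 20 mg/L, from 51.1% to 66.3% in SKOV3 at 20 mg/L and from 51.1% to 40.9% for the line difference at 20 mg/L. Fitting all 18 libraries together left 1466 in place of 2217 genes called in SKOV3 at 20 mg/L. The causes were not tested. Low counts limit OSGIN1 in A2780 with DMSO.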
